A study of Rattus norvegicus with 8 samples.

Results

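Pmepa1, Ccn2, Smad7, Skil, Ldlrad4, Tgfb1, Thbs1, Bhlhe40 and Tgif1 are genes known as direct targets of TGF-beta signalling or as feedback regulators of it, and they were taken by their symbols, 9 of the 30240 rows of a gene table. They were read in SF2 cells, a rat dental epithelial line taken from the mandibular incisor at its cervical loop, where ameloblasts arise. The 8 libraries of 3'-end RNA sequencing comprised every combination of 3 labels: AmeloD-overexpressing or Control genotype, the plasmid label pCMV6.ODAM or pCMV6, and the label TGF or N. AmeloD is a dental epithelial transcription factor with a basic helix-loop-helix domain, and ODAM is odontogenic ameloblast-associated protein. The labels do not spell out TGF and N, and name neither a ligand nor its dose or time. Each of the 8 combinations had 1 library, so each label was carried by 4 libraries that also differ in the other labels, and no combination had a replicate. All groups share the cell line and a pCMV6 plasmid label, and the labels do not say whether the AmeloD cells are 1 clone.

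TGF-beta ligands are secreted in a latent form, are freed by integrins or by thrombospondin 1, and assemble type II and type I receptor kinases that phosphorylate SMAD2 and SMAD3. With SMAD4 these enter the nucleus and bind short sites in target genes together with other factors. Among the genes they induce are inhibitors of the pathway itself: SMAD7 blocks and removes the receptors, PMEPA1 and LDLRAD4 keep SMAD2 and SMAD3 from the receptors, and SKIL (SnoN) and TGIF1 repress transcription at SMAD-bound genes. Others act outward, such as the matricellular proteins CCN2 (connective tissue growth factor) and thrombospondin 1 and the ligand TGF-beta 1. In the incisor, TGF-beta signalling is known for roles in ameloblast differentiation and in the upkeep of the cervical loop.

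Reads per library totalled 10568146 to 13668736 in AmeloD and 14766931 to 17775226 in Control, and 15.6% to 17.5% of them lay in the table. Of 10 listed epithelial markers, 8 were in the table and 1 of these, Krt18, was at 0, and their summed level was 975 to 1040 CPM (reads scaled to a common library total) in AmeloD and 609 to 740 CPM in Control, against 618 to 1040 CPM in TGF and 609 to 988 CPM in N. Of the dental epithelial markers, the enamel matrix genes Amelx, Ambn and Enam, and Msx2, had 0 reads in the 8 libraries. Of 8 mesenchymal markers, 3 were at 0, and their sum was 20.6 to 64.5 CPM in TGF and 17.5 to 39.1 CPM in N, nearly all of it from the collagen gene Col3a1. The 6 leukocyte markers summed to at most 3.78 CPM in a library and the 4 endothelial markers to at most 0.277 CPM. Ascl5, which encodes AmeloD, had 0 reads in all libraries, so the genotype label could not be checked, and Odam was read 31 times with pCMV6.ODAM and 1 time with pCMV6. By genotype, 4 Odam reads with pCMV6.ODAM and 0 with pCMV6 were in AmeloD, and 27 and 1 were in Control, so the plasmid label is hardly checked in AmeloD. In these bulk samples, a change in the share of cells of a kind cannot be told apart from a change in RNA per cell.

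The sequence around the annotated start is shown for the 4 genes whose TGF response was past the test in the limma fit without dispute between tools (Pmepa1, Ccn2, Bhlhe40) or in the read-based fit (Thbs1). Each runs 5′ to 3′ on the strand of the gene, from 250 bases before the start to 50 bases after it, as RefSeq gives it for GRCr8: chr3:182478600-182478899 on the minus strand for Pmepa1, chr1:22624565-22624864 on the minus strand for Ccn2, chr3:125510000-125510299 on the plus strand for Thbs1 and chr4:143174200-143174499 on the plus strand for Bhlhe40. Capitals mark, on either strand, CAGAC (reverse complement GTCTG), the core of the SMAD-binding element, the GC-rich SMAD motif GGCGCC, the TEAD motif GGAATG, and the E-box CACGTG.
Pmepa1: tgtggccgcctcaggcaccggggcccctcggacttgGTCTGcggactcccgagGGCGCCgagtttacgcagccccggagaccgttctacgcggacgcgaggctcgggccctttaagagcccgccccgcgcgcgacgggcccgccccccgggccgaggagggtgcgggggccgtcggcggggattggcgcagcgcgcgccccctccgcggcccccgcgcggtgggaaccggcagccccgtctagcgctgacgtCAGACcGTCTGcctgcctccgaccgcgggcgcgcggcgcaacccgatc
Ccn2: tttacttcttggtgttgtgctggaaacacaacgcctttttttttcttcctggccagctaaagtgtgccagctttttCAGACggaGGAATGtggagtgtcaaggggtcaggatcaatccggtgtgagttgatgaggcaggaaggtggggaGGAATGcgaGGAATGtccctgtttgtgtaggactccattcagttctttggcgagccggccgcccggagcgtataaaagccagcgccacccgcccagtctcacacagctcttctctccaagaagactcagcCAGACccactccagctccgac
Thbs1: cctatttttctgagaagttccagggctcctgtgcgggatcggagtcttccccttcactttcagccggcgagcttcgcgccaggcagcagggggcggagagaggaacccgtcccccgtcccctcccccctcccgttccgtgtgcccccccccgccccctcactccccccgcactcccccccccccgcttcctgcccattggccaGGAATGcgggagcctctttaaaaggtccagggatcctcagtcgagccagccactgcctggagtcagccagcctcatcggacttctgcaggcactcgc
Bhlhe40: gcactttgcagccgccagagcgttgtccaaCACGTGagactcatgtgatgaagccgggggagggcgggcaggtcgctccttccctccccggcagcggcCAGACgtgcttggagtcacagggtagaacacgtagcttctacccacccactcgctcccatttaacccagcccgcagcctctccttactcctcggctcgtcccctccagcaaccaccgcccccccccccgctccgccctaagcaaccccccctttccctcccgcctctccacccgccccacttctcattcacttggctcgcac

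Of the 9 genes, 8 had such a window and Tgif1 had none in the table used. CAGAC was in the windows of 5 (Pmepa1, Ccn2, Skil, Ldlrad4 and Bhlhe40), and in 50.1% of the 33469 RefSeq windows of the same length. Pmepa1 held it at -214, 2 and 8 bases from the start (counted from 0 at the annotated start), and Ccn2 at -174 and 29. GGCGCC was in the windows of 3 (Pmepa1, Smad7 and Skil), against 11% of all windows. GGAATG was in those of 2 genes, against 14.2%: Ccn2 held it at -166, -101 and -92, and Thbs1 at -47. CACGTG, a site that BHLHE40 itself can bind, was in the window of Bhlhe40 at -220, against 6.42% of all windows. The wider E-box CANNTG, which includes CACGTG, was in 2 of the 8 windows (Ldlrad4 and Bhlhe40) and in 72.1% of all. The palindromic SMAD element GTCTAGAC, in 0.197% of all windows, and the AP-1 motif TGANTCA, in 7.33%, were in none of the 8. These matches describe the letters in these windows and not binding.

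The comparison of TGF with N libraries asked how far the 9 genes responded. Pmepa1 and Ccn2 were the 2 genes with the highest log2 fold changes of all 6849 tested, Bhlhe40 ranked 12 and Tgif1 ranked 89. Thbs1, Smad7, Skil, Tgfb1 and Ldlrad4 were read too rarely for that test. Their pooled reads were higher in TGF, and Thbs1 passed a test on reads. The test was limma on log2(CPM + 1), with genotype and plasmid as further terms, for the genes that 4 or more libraries held at 1 CPM or above. Of the 9 genes 4 reached that level, Pmepa1 through its 4 TGF libraries alone. All 4 passed upward at an adjusted p under 0.05, as did 105 genes (1.53%) of those tested; counting both directions, 124 genes (1.81%) passed. Since Pmepa1 was tested only because of its level in TGF, this count is not support of its own. The 19 that fell were 0.277% of those tested; with DESeq2 on reads the split was 75 higher and 31 lower.

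**Figure D1:**
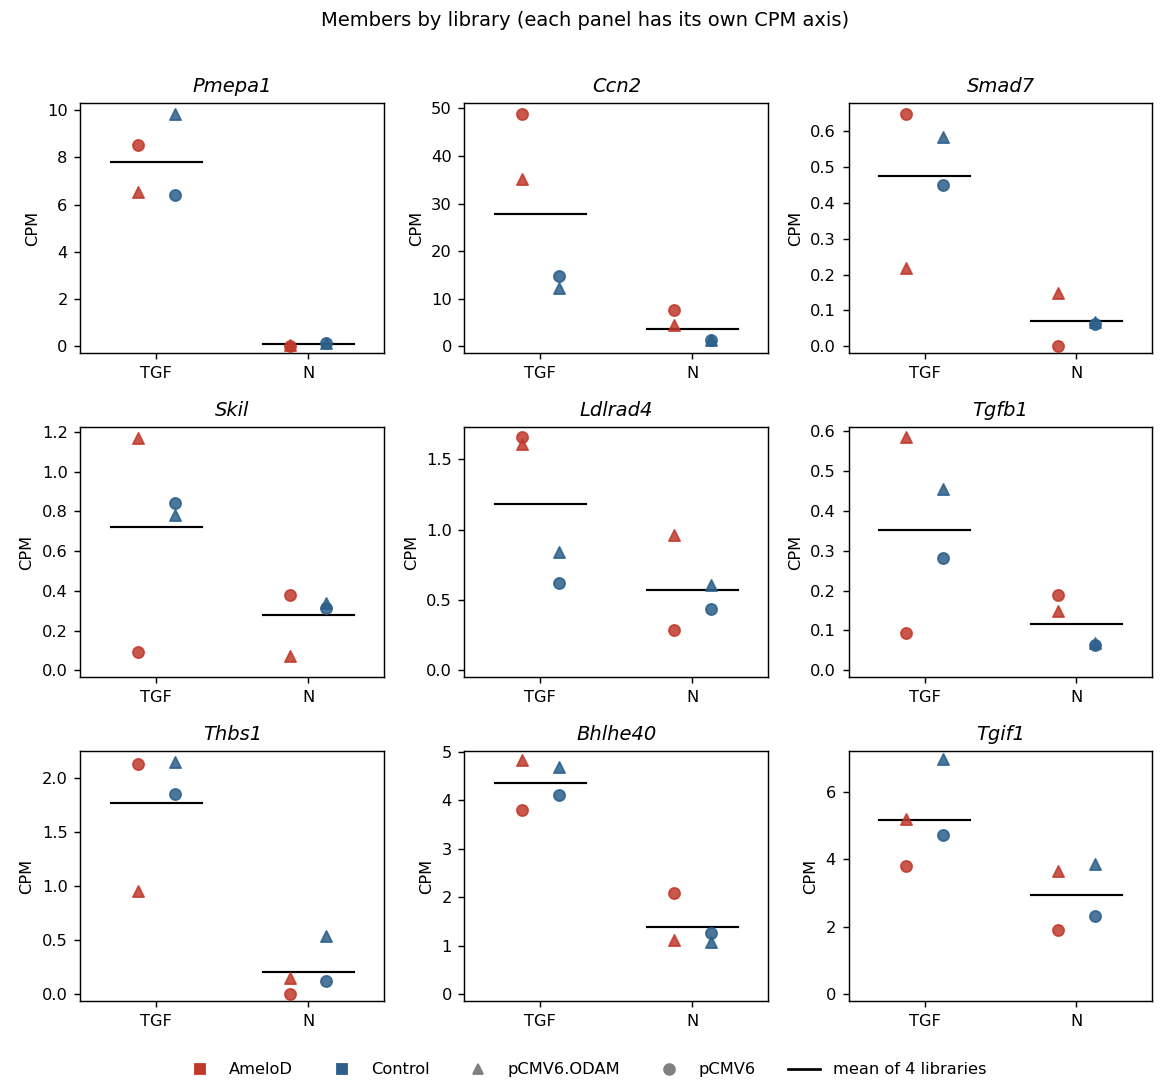
CPM of the 9 genes in each of the 8 libraries, TGF at the left and N at the right of each panel, with colour for genotype, symbol for plasmid and a bar at the mean of 4 libraries; each panel has its own axis. The TGF and N libraries do not overlap for Pmepa1, Ccn2, Smad7, Thbs1 and Bhlhe40, and the Ccn2 points separate by genotype as well.

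The plot of CPM by library shows that TGF and N libraries did not overlap for 5 of the 9 genes, each of them higher in TGF. Among all genes with at least 10 reads in the 8 libraries, 2.62% were higher in every TGF library than in every N library. For those 5 genes the two-sided exact permutation p of the CPM difference was 0.0286, the smallest that 4 against 4 libraries allow. The lack of overlap fixes this p, so it adds no support of its own.

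Pmepa1 (ENSRNOG00000050404, chromosome 3, 162012751 to 162060454 on the minus strand in mRatBN7.2) encodes a membrane protein that binds SMAD2 and SMAD3 and limits their activation. In the TGF libraries it was at 6.51 CPM in AmeloD pCMV6.ODAM, 8.50 CPM in AmeloD pCMV6, 9.81 CPM in Control pCMV6.ODAM and 6.41 CPM in Control pCMV6. In the N libraries the same 4 combinations had 0.0742, 0, 0.135 and 0.125 CPM. Every TGF library lay far above every N library. The 4 TGF values ran from 6.41 to 9.81 CPM, in no constant order by genotype or plasmid. The means were 7.81 ± 1.65 CPM in TGF and 0.0837 ± 0.0619 CPM in N (SD, n = 4 each). The log2 fold change was 3.01 ± 0.19 (SE; limma adjusted p = 6.30e-11), higher in TGF in 4 of 4 matched pairs of libraries. In reads, 446 fell on Pmepa1 in the TGF libraries and 5 in the N libraries, an 84.8-fold ratio after scaling to the library totals, with an exact 95% interval of 36.1 to 262 that covers counting error only. The log2 fold change is smaller than this ratio because 1 CPM is added to values near 0. The 0 reads in the AmeloD pCMV6 N library allow up to 0.284 CPM.

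Ccn2 (ENSRNOG00000015036, chromosome 1, 20802199 to 20805734 on the minus strand) encodes a secreted matricellular protein that promotes matrix production and is also a classical YAP and TEAD target. It was at 35.1 CPM in AmeloD pCMV6.ODAM, 48.8 CPM in AmeloD pCMV6, 12.3 CPM in Control pCMV6.ODAM and 14.7 CPM in Control pCMV6 with TGF. With N, the same combinations had 4.45, 7.66, 1.42 and 1.31 CPM. All TGF libraries exceeded all N libraries, and within each label both AmeloD libraries exceeded both Control libraries. The means were 27.7 ± 17.4 CPM in TGF and 3.71 ± 3.01 CPM in N (SD, n = 4 each), the genotype step being part of this spread. The TGF effect was 2.62 ± 0.15 log2 units (limma adjusted p = 1.96e-11), and 1459 reads in TGF against 183 in N gave a 7.58-fold ratio (exact 95% interval 6.49 to 8.89).

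Bhlhe40 (ENSRNOG00000007152, chromosome 4, 141618476 to 141624774 on the plus strand) encodes the basic helix-loop-helix repressor DEC1. In TGF it was at 4.83 CPM in AmeloD pCMV6.ODAM, 3.79 CPM in AmeloD pCMV6, 4.68 CPM in Control pCMV6.ODAM and 4.11 CPM in Control pCMV6. In N it was at 1.11, 2.08, 1.08 and 1.25 CPM in the same order. The groups did not overlap, and the AmeloD pCMV6 pair was the closest, since its N library was the highest of the 4. The means were 4.35 ± 0.487 CPM in TGF and 1.38 ± 0.472 CPM in N (SD, n = 4 each). The effect was 1.18 ± 0.19 log2 units (limma adjusted p = 0.000357), and the ratio of reads, 252 in TGF and 73 in N, was 3.28 (2.52 to 4.32).

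Tgif1 (ENSRNOG00000015906, chromosome 9, 110720921 to 110757802 on the minus strand) encodes a homeodomain corepressor of SMAD2 and SMAD3. It was at 5.19, 3.79, 6.95 and 4.73 CPM in the TGF libraries of AmeloD pCMV6.ODAM, AmeloD pCMV6, Control pCMV6.ODAM and Control pCMV6. In their N counterparts it was at 3.63, 1.89, 3.86 and 2.32 CPM. TGF was the higher in all 4 pairs, but the groups overlapped, because the lowest TGF library lay below the highest N library. The change of 0.66 ± 0.17 log2 units passed the test (limma adjusted p = 0.0345), with an exact permutation p of 0.0571 across the 8 libraries without regard to pairs. This call is the least firm of the 4: it ended with edgeR (adjusted p = 0.0629), with DESeq2 (0.108), with TMM scaling (0.0525), with all genes tested (0.0943), and without any 1 of the 8 libraries (adjusted p at least 0.0517). Means were 5.17 ± 1.33 CPM in TGF and 2.93 ± 0.968 CPM in N (SD, n = 4 each). The ratio of reads, 303 in TGF to 163 in N, was 1.77 (1.46 to 2.15).

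The 5 rarer genes comprise another matricellular activator, the ligand and 3 inhibitors. For them, edgeR's quasi-likelihood test was run on whole reads of the 11898 genes with at least 10 reads, an alternative added after the data were seen. Of the 5, 1 passed, Thbs1, where 79 genes (0.664%) passed upward in all. Pooled reads are given with exact 95% intervals, which cover counting error and not the spread between libraries.

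Thbs1 (ENSRNOG00000045829, chromosome 3, 105056292 to 105071440 on the plus strand) encodes thrombospondin 1, an activator of latent TGF-beta. It was at 0.951, 2.13, 2.14 and 1.86 CPM in the TGF libraries of AmeloD pCMV6.ODAM, AmeloD pCMV6, Control pCMV6.ODAM and Control pCMV6, and at 0.148, 0, 0.542 and 0.125 CPM in the N libraries. The TGF libraries all lay above the N libraries, with AmeloD pCMV6.ODAM the lowest of them. The edgeR log2 fold change was 2.98 (adjusted p = 0.00145), and 102 reads in TGF against 12 in N gave an 8.08-fold ratio (4.43 to 16.1). Exons of Thbs1 overlap exons of Fsip1 on the opposite strand, and with the strand setting not given, reads of the 2 genes cannot be told apart there. Fsip1 was counted at 48 reads in TGF and 34 reads in N.

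Smad7 (ENSRNOG00000018359, chromosome 18, 68988429 to 69016765 on the plus strand), the inhibitory SMAD, had 3, 7, 9 and 8 reads in the TGF libraries of AmeloD pCMV6.ODAM, AmeloD pCMV6, Control pCMV6.ODAM and Control pCMV6, and 2, 0, 1 and 1 reads in the N libraries. In CPM the groups did not overlap, although 0.219 CPM in AmeloD pCMV6.ODAM with TGF was close to its N partner at 0.148 CPM. The pooled ratio was 6.42 (2.24 to 25.2) on 27 and 4 reads, and the edgeR adjusted p was 0.218. No library reached 1 CPM.

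Skil (ENSRNOG00000009899, chromosome 2, 112247051 to 112275080 on the minus strand), encoding the SMAD corepressor SnoN, had 16, 1, 12 and 15 reads in those TGF libraries and 1, 4, 5 and 5 reads in the N libraries. Tgfb1 (ENSRNOG00000020652, chromosome 1, 81196532 to 81212847 on the plus strand), encoding the ligand itself, had 8, 1, 7 and 5 reads with TGF and 2, 2, 1 and 1 reads with N. For both genes the AmeloD pCMV6 pair ran against the other 3, with 1 read in its TGF library. In that library Pmepa1, Ccn2, Thbs1, Smad7 and Bhlhe40 were above every N library, which follows from their lack of overlap, and so was Ldlrad4. Tgif1 was not: its 3.79 CPM there lay below the 3.86 CPM of Control pCMV6.ODAM N. Why Skil and Tgfb1 were low in that library was not tested. The pooled ratios were 2.79 (1.52 to 5.39) for Skil and 3.33 (1.30 to 10.1) for Tgfb1, but neither passed the test across libraries (edgeR adjusted p = 0.494 and 0.599). Their exact permutation p was 0.114 and 0.0857.

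Ldlrad4 (ENSRNOG00000016879, chromosome 18, 61521428 to 61843238 on the plus strand), a membrane inhibitor related to PMEPA1, was at 1.61 and 1.66 CPM in the AmeloD pCMV6.ODAM and AmeloD pCMV6 libraries with TGF and at 0.964 and 0.284 CPM with N. In Control pCMV6.ODAM and Control pCMV6 it was at 0.845 and 0.619 CPM with TGF and 0.609 and 0.438 CPM with N. TGF was the higher in all 4 pairs, while the 4 TGF and 4 N libraries overlapped. The pooled ratio was 1.90 (1.23 to 3.0), on 64 reads in TGF and 32 in N, with an edgeR adjusted p of 0.508 and an exact permutation p of 0.114.

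**Figure D2:**
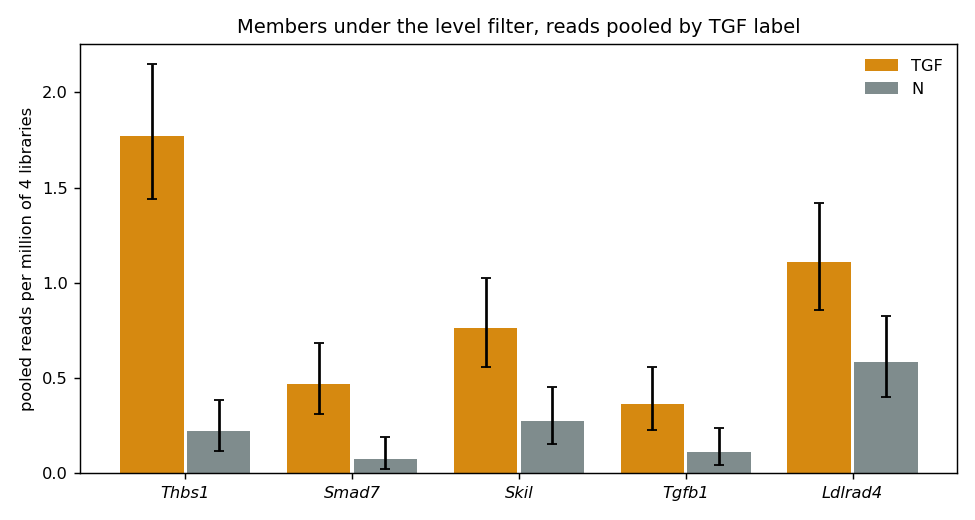
Reads on the CPM scale pooled over the 4 libraries of a label, TGF at the left of each pair of bars and N at the right, for the 5 genes under the level filter; error bars are exact 95% Poisson intervals of the pooled reads, counting error only. The TGF bar is the taller for each gene, and the intervals of TGF and N are separate for all but Tgfb1.

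The plot of pooled reads sets the 5 rare genes side by side: the ratio was highest for Thbs1 and lowest for Ldlrad4. Their single matched pairs show how far pooling carries these values. The exact 95% interval of the read ratio lay above 1 for all 5 genes when pooled, and for 2, 3, 2 and 1 of them in the AmeloD pCMV6.ODAM, AmeloD pCMV6, Control pCMV6.ODAM and Control pCMV6 pairs, where it compares 2 libraries and not the conditions. Among the 5049 genes with at least 10 reads that missed the level filter, the interval lay above 1 for 10.1% when pooled, and for 6.56%, 3.74%, 7.53% and 3.49% in the same pairs.

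AmeloD was compared with Control to see whether the level of these genes, or their response, differed between genotypes. Ccn2 was the exception among the 4 tested: it was higher in AmeloD by 1.54 ± 0.15 log2 units (limma adjusted p = 5.19e-08), where 621 genes (9.07%) were higher among all tested and 325 (4.75%) were lower, 13.8% in all. With TMM scaling that split was 532 higher and 474 lower, and with all libraries shifted to the same median it was 490 and 510. The difference was of the same size with TGF (1.55, adjusted p = 8.11e-06; 3.5% of genes passed upward) and with N (1.54, adjusted p = 8.56e-06; 4.51%), and AmeloD was the higher in 4 of 4 pairs. Over all libraries, 1149 reads in AmeloD and 493 in Control gave a ratio of 3.07 (2.76 to 3.42).

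The levels of Ccn2 thus formed 4 steps that did not overlap, AmeloD TGF (35.1 to 48.8 CPM), Control TGF (12.3 to 14.7 CPM), AmeloD N (4.45 to 7.66 CPM) and Control N (1.31 to 1.42 CPM), with 2 libraries each. The step between Control TGF and AmeloD N changes both labels at once and was not tested. Marker sums separated by genotype too. The epithelial sum, given above and nearly all from Krt17, Krt5 and Krt7, was higher in all AmeloD libraries. Krt8, on the same list, ran the other way, with means of 3.75 CPM in AmeloD and 8.80 CPM in Control. The mesenchymal sum was 17.5 to 26.8 CPM in AmeloD and 34.1 to 64.5 CPM in Control. The leukocyte sum, mostly Cd68, was 2.77 to 3.78 CPM in AmeloD and 0.876 to 1.63 CPM in Control. The part of these markers in the Ccn2 difference was not tested.

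Pmepa1, Bhlhe40 and Tgif1 showed no such difference past the test. Their AmeloD to Control log2 fold changes were -0.10 for Pmepa1 (95% interval -0.49 to 0.28), 0.10 for Bhlhe40 (-0.28 to 0.49) and -0.22 for Tgif1 (-0.56 to 0.12). These intervals leave room for modest differences but lie below the lower bound of 1.24 for Ccn2. Among the rarer genes, Ldlrad4 had 56 reads in AmeloD and 40 in Control, a ratio of 1.84 (1.21 to 2.84), and Thbs1 had 38 and 76, a ratio of 0.658 (0.434 to 0.984). Neither passed across libraries (edgeR adjusted p = 0.367 and 0.412), where 8.42% of genes with at least 10 reads did. Smad7, Skil and Tgfb1 had ratios of 0.831, 0.783 and 1.22, each with an interval that includes equality.

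**Figure D3:**
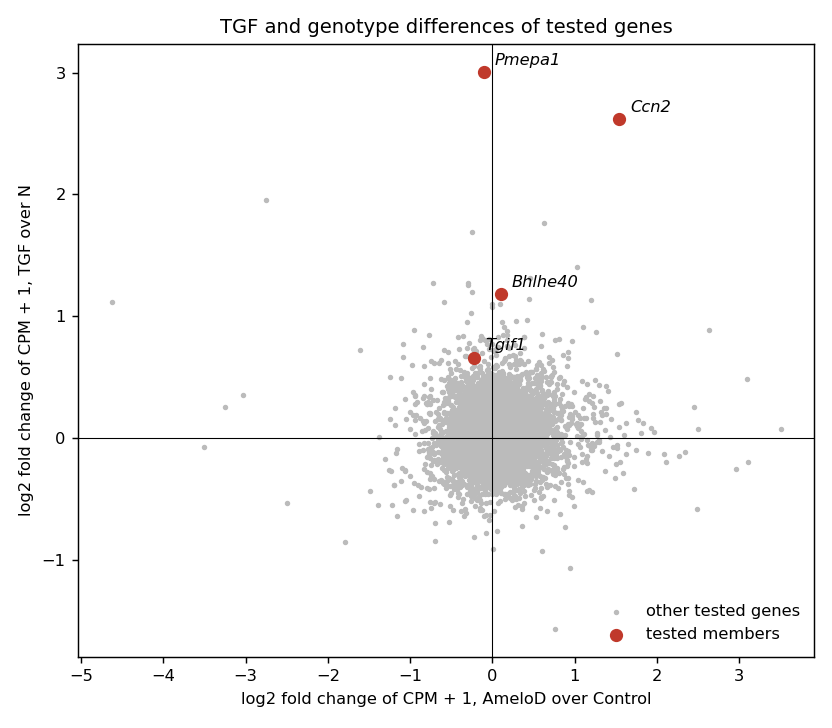
Log2 fold change of CPM + 1 for TGF over N (vertical) against AmeloD over Control (horizontal) for the 6849 tested genes in grey and the 4 tested genes named here in red. Pmepa1 and Ccn2 lie above all other genes on the TGF axis, and Ccn2 alone of the 4 lies far to the right, at 1.54.

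The scatter of both effects shows Ccn2 away from both axes, whereas Pmepa1, Bhlhe40 and Tgif1 stay near the vertical one. On the genotype axis Ccn2 ranked 29 of 6849 from the top.

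The response to TGF was then set side by side within each genotype, where 0.73% of tested genes rose in AmeloD and 0.423% in Control. Ccn2 changed by 2.63 log2 units in AmeloD (adjusted p = 7.06e-10) and by 2.61 in Control (adjusted p = 8.21e-10), and Pmepa1 by 3.03 (2.46e-09) and 2.99 (3.56e-09). The difference of the 2 responses, tested as an interaction, was 0.014 for Ccn2 (95% interval -0.62 to 0.65) and 0.041 for Pmepa1 (-0.75 to 0.83). Bhlhe40 changed by 1.05 in AmeloD (adjusted p = 0.0530) and 1.31 in Control (adjusted p = 0.00854), and Tgif1 by 0.57 (0.373) and 0.75 (0.367). Their interaction terms were -0.26 (-1.04 to 0.51) and -0.18 (-0.89 to 0.54), and all 4 terms had an adjusted p of 0.999. A single gene of 6849 (0.0146%) passed the interaction test, and it was none of these. The intervals are wide enough to hold differences of 0.5 log2 units in either direction.

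**Figure D4:**
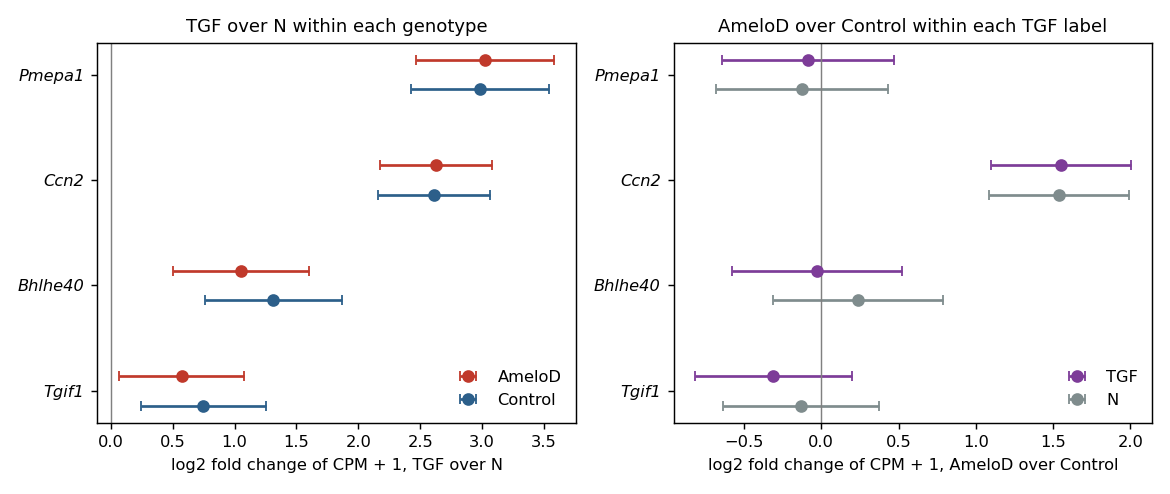
Log2 fold changes of CPM + 1 with 95% intervals from limma for the 4 tested genes, at the left TGF over N in AmeloD (red) and Control (blue), at the right AmeloD over Control in TGF (purple) and N (grey). At the left the intervals of both genotypes overlap for each gene, and at the right those of Ccn2 alone stay clear of 0.

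The plot of effects by genotype shows how close the TGF responses of Ccn2 and Pmepa1 were on the log2(CPM + 1) scale, and for both genes this depends on the scale. For Ccn2 in CPM, TGF minus N was 30.7 and 41.1 in the AmeloD pairs (pCMV6.ODAM and pCMV6), against 10.9 and 13.4 in the Control pairs. As a ratio of reads the Ccn2 response was 7.02 (5.88 to 8.43) in AmeloD and 9.95 (7.25 to 14.0) in Control. Its interaction term was -0.46 with edgeR on reads (adjusted p = 1) and -0.18 with a pseudocount of 0.5, so its sign turned with the pseudocount and the tool. For Pmepa1 the ratio of reads was 178 (31.5 to 7059) in AmeloD, where 1 N read sets it, and 61.4 (23.7 to 227) in Control. Its interaction term was 1.36 with edgeR and 1.56 with DESeq2 at the same filter, and 1.39 with edgeR on genes with at least 10 reads (adjusted p = 1). For Thbs1 the ratio of reads was 17.7 (4.55 to 152) in AmeloD, where 2 N reads set it, and 6.12 (3.13 to 13.3) in Control. Thbs1, tested on reads, changed by 4.03 in AmeloD (edgeR adjusted p = 0.0121) and 2.51 in Control (adjusted p = 0.0705), where 0.395% and 0.219% of genes passed upward. That difference was not past the test (1.52, adjusted p = 1).

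The pCMV6.ODAM and pCMV6 libraries were compared in the same fits. No gene passed with limma (454 of 6849 had an unadjusted p under 0.05), 0 with edgeR and 1 with DESeq2. Among the 4 tested genes Tgif1 had the largest value, 0.52 ± 0.17, at 4.91 ± 1.53 CPM in pCMV6.ODAM and 3.18 ± 1.31 CPM in pCMV6 (SD, n = 4 each; limma adjusted p = 0.665), and it was the higher with pCMV6.ODAM in 4 of 4 pairs. Ccn2 was at -0.32 (95% interval -0.63 to -0.017, adjusted p = 0.724), and Pmepa1 and Bhlhe40 were at 0.08 and -0.06. The TGF response did not differ past the test between plasmids either: 0 genes passed with limma (504 at an unadjusted p under 0.05) and 0 with edgeR on genes with at least 10 reads. For Bhlhe40 the TGF change was 1.46 with pCMV6.ODAM and 0.91 with pCMV6, a difference of 0.55 (-0.19 to 1.29). For Thbs1 the ratio of TGF to N reads was 4.47 (2.23 to 9.94) with pCMV6.ODAM and 26.0 (6.87 to 220) with pCMV6, where 2 N reads set the second value, and the edgeR adjusted p of the difference was 0.937.

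The rest of the pathway was read from lists of ligands, receptors, SMADs, inhibitors and targets. In TGF against N, where 1.53% of all tested genes rose, 1 of 5 tested genes for ligands and their activation did, Itgb6, the beta subunit of the integrin that frees latent TGF-beta (1.85 ± 0.450 CPM in TGF and 0.672 ± 0.106 CPM in N, SD, n = 4 each; 0.76 ± 0.18, limma adjusted p = 0.0234). That call ended with all genes tested (0.148), and it held in 2 of the 8 fits that left out 1 library. Itgb6 reached the level filter through its TGF libraries alone, so this count is not support of its own. Of the receptors 2 were tested, Tgfbr2 and Bmpr2, and 0 passed. The receptor Tgfbr1 had 20 reads in TGF and 16 in N. Of 5 tested SMADs and partners 0 passed, with Smad2 at 2.89 CPM in TGF and 1.94 CPM in N (0.40, adjusted p = 0.382). Smad3 had 7 reads in TGF and 16 in N.

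Of 10 other negative regulators tested, 0 passed for TGF. They included Ski, the paralog of Skil, at -0.13, and the ubiquitin ligase genes Smurf1 and Smurf2, which work with SMAD7, at 0.34 and 0.20. Of 10 tested genes among other induced targets 4 rose. Over these lists 5 of 37 tested genes rose (13.5%), Itgb6 among them, beside 1.53% of all tested genes. The lists were chosen with earlier results of these data known, so this share is a description and not a test. Fn1, encoding fibronectin, was at 53.5 ± 9.48 CPM in TGF and 25.2 ± 9.44 CPM in N (1.12 ± 0.14, adjusted p = 9.41e-06), and the tropomyosin gene Tpm1 at 119 ± 59.4 and 65.4 ± 36.9 CPM in the same order (0.87 ± 0.12, adjusted p = 3.43e-05). The matrix protein gene Tgfbi (0.83, adjusted p = 0.0331) and the integrin subunit gene Itgb1 (0.41, adjusted p = 0.0209) passed more narrowly. Itgb1 passed in 4 of 11 alternatives that kept all libraries (adjusted p up to 0.277). It was lost with TMM scaling, equal medians, no trend, edgeR, DESeq2 and all genes tested. Tgfbi did not pass with all genes tested or without the trend (adjusted p up to 0.141). In the 8 fits that left out 1 library, Itgb1 passed in 2 and Tgfbi in 3. Of 5 tested genes listed as repressed by SMADs 0 passed. Id1 was at -0.60 (limma adjusted p = 0.0916), Id3 at -0.51 (0.154), Myc at -0.22 (0.705) and Cdc25a at -0.15 (0.833). Id4 went the other way, at 0.38 (0.404).

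**Figure D5:**
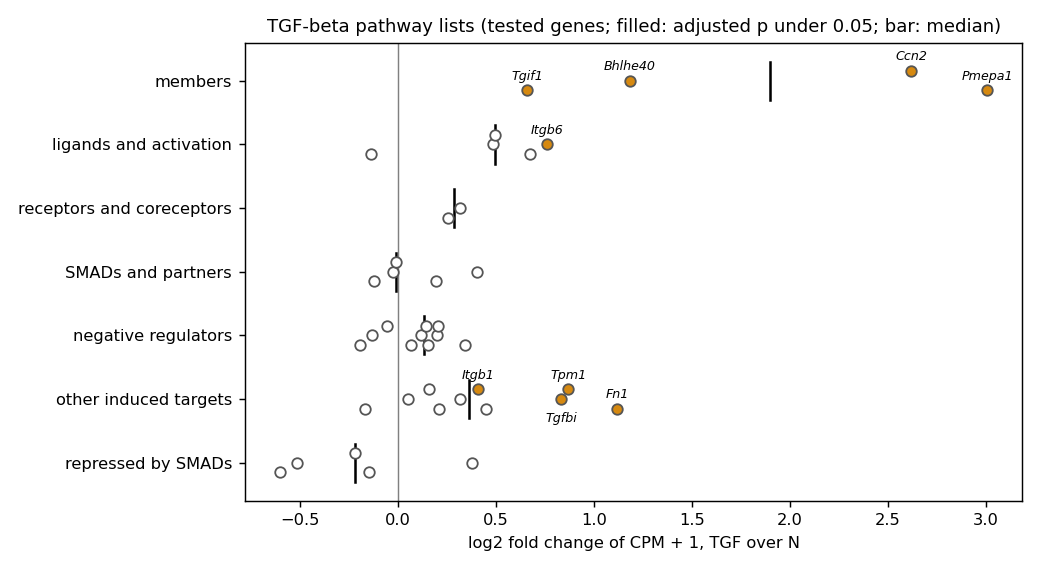
Log2 fold change of CPM + 1 for TGF over N, 1 point per tested gene and 1 line of points per list, filled where the limma adjusted p was under 0.05, with a bar at each list's median. The 4 tested members lie at 0.66 to 3.01, and the points of SMADs and partners and of negative regulators lie between -0.19 (Usp15) and 0.40 (Smad2).

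The plot of pathway lists gives a median of 1.90 for the 4 tested members (1.18 for the 3 without Pmepa1, which was tested only through its TGF libraries). The medians were 0.49 for ligands and activation, 0.28 for receptors and -0.0085 for SMADs and partners. They were 0.13 for negative regulators, 0.36 for other induced targets and -0.22 for genes repressed by SMADs, beside 0.036 over all tested genes. Between genotypes, 1 of the 37 tested genes of these lists rose and 4 fell, 13.5% in all beside 13.8% of all tested genes. The rise was Tpm1 (1.26 ± 0.12, adjusted p = 2.12e-08; 131 ± 49.2 CPM in AmeloD and 53.2 ± 18.0 CPM in Control), and the falls were Fn1, Zeb2, Wwp1 and Id4 (-0.59, -0.77, -0.53 and -0.60). In the 8 fits that left out 1 library, Fn1 and Zeb2 kept the call in 8, Wwp1 in 5 and Id4 in 2. Id4 also lost it with DESeq2 and with all genes tested, Zeb2 with all genes tested, and Fn1 and Wwp1 without the trend. Zeb2 and Id4 reached the level filter through their Control libraries alone, so their falls are not support of their own.

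Of 14 listed close relatives of the 9 genes, 2 were tested, Ski and Ccn4, at -0.13 and -0.16 for TGF (adjusted p = 0.862 and 0.810). Ccn1, the relative of Ccn2 that shares its regulation by YAP, had 15 reads in TGF and 14 in N. Smad6, the inhibitory SMAD of the BMP branch, had 10 and 9 reads, and Thbs3 had 28 and 22. Thbs2, Tgfb3, Tgfb2, Ccn3 and Ccn5 had 6, 5, 4, 1 and 1 reads in TGF and 4, 1, 1, 1 and 0 in N. Tgif2 and Bhlhe41 had 0 reads in TGF against 5 and 1 in N, and Ccn6 and Thbs4 had 0 reads in all libraries.

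The genes whose log2(CPM + 1) followed Pmepa1 most closely over the 8 libraries, which share depth and labels, included Tm9sf2 (Pearson r = 0.983) and Loxl2 (0.981). Loxl2, a lysyl oxidase-like enzyme that cross-links collagen, was at 6.34 ± 0.511 CPM in TGF and 1.30 ± 0.470 CPM in N (SD, n = 4 each). For Ccn2 the closest were Palldl1 (0.985), Map1lc3b (0.969) and Cd47 (0.966). Cd47, a thrombospondin receptor, was at 19.3 ± 7.10 CPM in TGF and 10.3 ± 2.93 CPM in N, and at 19.0 ± 7.34 CPM in AmeloD and 10.6 ± 3.38 CPM in Control. These values are a description of the 8 libraries.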

How the data were processed

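Per the labels' protocols, RNA of the 8 libraries was prepared with the QIAseq UPX 3' kit, sequenced on a DNBSEQ-G400, aligned with STAR and counted with featureCounts. The submitters' processing notes name STAR 2.7.10a, featureCounts 2.0.1, Trimmomatic 0.39, Trim Galore 0.6.7, DESeq2 1.20.0 and cutadapt 3.7, with the build mRatBN7.2. How strand, molecular identifiers and shared reads were treated is not given here. The authors deposited CPM (reads scaled to a common library total) for 30240 rows, 4319 of them without a symbol. All 241920 values (100%) were whole multiples of 1 read within 0.01, so reads and library totals were recovered. A count of 0 allows up to 3 reads, and intervals cover counting error only.

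The main test was limma 3.58.1 (R 4.3.3) with eBayes trend on log2(CPM + 1), additive terms for TGF, genotype and plasmid, and Benjamini-Hochberg adjustment over the 6849 genes that 4 or more libraries held at 1 CPM or above (4 residual degrees of freedom, 3 with an interaction). The residual spread is between unlike libraries, which may be technical. The log2(CPM + 1) scale understates changes of low genes. As alternatives, edgeR 4.0.16 and DESeq2 1.42.0 were run on recovered reads; edgeR called 105 genes for TGF. The share of all rare genes past the read-ratio interval was added after the data were seen. Rare genes were also read as pooled reads and by exact permutation, two-sided. Scripts were tested on simulated data.

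The 9 genes and the lists were chosen with earlier results of these data known. All 9 were named, with listed genes past the TGF test (up to 4 a list), measured paralogs, and the 3 genes of highest Pearson r with Pmepa1 and Ccn2; some genes of these lists are not reported here. A few further list genes were named after their values were seen. They were Tgfbr1, Tgfbr2, Bmpr2, Smad2, Smad3, Smurf1, Smurf2, Id1, Id3, Id4, Myc and Cdc25a, and those past the genotype test. Promoter windows and GRCr8 coordinates come from RefSeq; all other coordinates are from the deposited table.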

Additional observations from a re-analysis of the deposited data

Results flagged for a closer look

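Bhlhe40 was at 2.08 CPM in the AmeloD pCMV6 N library, well above the other 3 N libraries at 1.08 to 1.25 CPM. The gap to the nearest of them was 0.831 of the range of the 4 N libraries, just over the 95% limit of Dixon's test for 4 values. It rests on 22 reads. Of 54 groups of 4 libraries examined for the 9 genes, 1 stood out in this way, where chance gives about 1 in 20.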

How the results depend on the processing

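The upward TGF calls of Pmepa1, Ccn2 and Bhlhe40 and the AmeloD call of Ccn2 held under each alternative that tested them; Bhlhe40 did not reach the filter of 5 CPM and was not tested there. Leaving out each library in turn gave TGF values of 2.90 to 3.13 for Pmepa1, 2.52 to 2.72 for Ccn2, 1.09 to 1.34 for Bhlhe40 and 0.63 to 0.72 for Tgif1, and 1.45 to 1.64 for Ccn2 between genotypes. The count of TGF calls was 124, and 67 with no level filter, 62 without the trend and 71 to 104 without 1 library (71 without AmeloD pCMV6.ODAM N and 76 without Control pCMV6.ODAM N). The count for genotype was 946, and 606 at 5 CPM or more and 642 to 924 without 1 library. The plasmid count was 0, 1 with DESeq2 and 0 to 2 without 1 library (2 without Control pCMV6.ODAM TGF). The genotype by TGF count was 1, and 0 with a pseudocount of 0.5, no level filter, no trend, edgeR, DESeq2 or edgeR on genes with 10 reads or more; it was 0 to 7 without 1 library, and 0 to 3 for plasmid by TGF. With matched pairs as a replicate block, 125 genes were called for TGF, Tgif1 had an adjusted p of 0.0399, and no call of a member changed; the libraries share no replicate, so this block is of labels alone. Of the rare genes, 5 had a read ratio above 1 by its interval when pooled, and 2, 3, 2 and 1 in single pairs.

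No value that turned sign was called. The genotype by TGF term of Pmepa1 was -0.012 with a pseudocount of 2 and -0.011 with TMM, and that of Ccn2 -0.18 with a pseudocount of 0.5, -0.011 with TMM, -0.50 with edgeR, -0.49 with DESeq2 and -0.46 with edgeR on genes with 10 reads or more. The plasmid by TGF term of Pmepa1 was -0.0032 with a pseudocount of 0.5, -0.087 with TMM, -0.11 with equal medians, -0.55 with edgeR, -0.63 with DESeq2 and -0.54 with edgeR on genes with 10 reads or more. Without 1 library, the genotype value ranged from -0.23 to 0.0064 for Pmepa1 and -0.051 to 0.22 for Bhlhe40, the plasmid value from -0.041 to 0.19 and -0.17 to 0.10 for the same genes, the genotype by TGF term from -0.27 to 0.35 for Pmepa1, -0.25 to 0.27 for Ccn2 and -0.59 to 0.063 for Bhlhe40, and the plasmid by TGF term from -0.26 to 0.35 for Pmepa1 and -0.30 to 0.20 for Ccn2. The cause was not tested. Depth limits Smad7 and Tgfb1 most, with 31 and 27 reads in all.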
